A study of Homo sapiens with 2 samples.

Results

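The 9 genes described here are the Janus kinases JAK1, JAK2, JAK3 and TYK2 and the signal transducers and activators of transcription STAT2, STAT3, STAT5A, STAT5B and STAT6. They are a list of names, drawn up with earlier results of these data known, and make up 9 of the 60839 genes compared. SUM-159 is a cultured human line from a triple-negative breast cancer. RNA was sequenced in 1 library of PD-L1L2-SE deficient cells, which lack a super-enhancer that, going by the title of the series, drives PD-L1 and PD-L2, and in 1 library of sgVector control cells. The sources used here do not say whether the deficient cells were 1 clone or a pool, nor where the removed element lies. With 1 library per group there was no replicate error and no p-value was computed. Each interval below covers counting error only, so it says nothing of how far a second culture would differ.

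Cytokines bind paired receptor chains that have no kinase of their own. Janus kinases sit on the receptor tails, phosphorylate them and each other, and create docking sites for STAT proteins. The STATs are then phosphorylated, pair up, enter the nucleus and bind target genes. Type I interferon receptors use TYK2 and JAK1, gp130 receptors of the interleukin-6 family act largely through JAK1 and STAT3, interleukin-4 and interleukin-13 act through STAT6, and hormone-type receptors such as those for prolactin and growth hormone act through JAK2 and STAT5. The gene for JAK2 lies on chromosome 9p near CD274 and PDCD1LG2, which encode PD-L1 and PD-L2.

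STAT5A and STAT5B are the closest relatives among the members, and their shared sequence bears on how well their reads can be told apart. Between the longest open reading frames of the 2 genes in GENCODE release 29, 88.9% of 2348 aligned bases were identical, against 53.7% to 60.9% for the other pairs within each family. The longest identical run was 429 bases, from position 564 to 992 of both open reading frames, and its first 150 bases, positions 564 to 713, are shown because reads lying within them fit both genes.
STAT5A and STAT5B shared run: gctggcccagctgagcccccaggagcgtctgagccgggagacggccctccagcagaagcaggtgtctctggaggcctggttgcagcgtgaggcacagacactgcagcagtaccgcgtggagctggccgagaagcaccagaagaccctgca
Of the 50-base words in the transcripts of STAT5A, 8.61% were also found in another gene, all of them in STAT5B, and for STAT5B the share was 9.0%. No such word of JAK1 or JAK2 occurred in another gene, and for the other 5 members the share was between 0.330% and 1.82%. The sources used here do not say how the authors counted reads that fit more than 1 gene, so the levels of the STAT5 pair are the least certain of the set.

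The stretches of 250 bases before the start sites follow for the 5 members whose ratio differed from 0 beyond counting error. STAT3 and STAT5B were higher in the deficient cells, and STAT2, STAT6 and TYK2 were lower. The stretches are RefSeq promoter sequences of GRCh38.p14, all from the minus strand and written in the direction of transcription, and each gene had 1 listed window. Capitals mark GC boxes (GGGCGG) and CCAAT boxes (CCAAT) on either strand, and the marks can overlap.
STAT3 promoter, chr17:42388443-42388692: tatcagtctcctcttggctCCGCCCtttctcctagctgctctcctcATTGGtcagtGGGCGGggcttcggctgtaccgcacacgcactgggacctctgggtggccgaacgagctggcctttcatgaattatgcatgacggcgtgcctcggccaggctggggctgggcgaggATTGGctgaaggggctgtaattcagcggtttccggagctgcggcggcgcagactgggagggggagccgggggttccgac
STAT5B promoter, chr17:42276392-42276641: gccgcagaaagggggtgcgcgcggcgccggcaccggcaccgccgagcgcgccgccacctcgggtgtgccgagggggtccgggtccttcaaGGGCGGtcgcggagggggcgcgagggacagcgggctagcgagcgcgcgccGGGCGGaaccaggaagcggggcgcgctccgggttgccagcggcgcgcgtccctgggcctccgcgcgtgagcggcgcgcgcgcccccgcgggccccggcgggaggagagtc
STAT2 promoter, chr12:56360108-56360357: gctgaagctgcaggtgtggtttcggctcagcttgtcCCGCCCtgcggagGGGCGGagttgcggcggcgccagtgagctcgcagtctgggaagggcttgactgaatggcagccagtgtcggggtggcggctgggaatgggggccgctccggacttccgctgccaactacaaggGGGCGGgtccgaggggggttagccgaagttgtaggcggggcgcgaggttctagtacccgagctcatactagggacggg
STAT6 promoter, chr12:57110290-57110539: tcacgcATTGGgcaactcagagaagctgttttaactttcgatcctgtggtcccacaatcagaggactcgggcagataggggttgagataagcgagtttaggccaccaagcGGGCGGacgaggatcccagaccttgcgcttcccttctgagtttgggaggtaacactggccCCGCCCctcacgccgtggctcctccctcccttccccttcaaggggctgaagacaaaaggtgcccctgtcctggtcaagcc
TYK2 promoter, chr19:10380573-10380822: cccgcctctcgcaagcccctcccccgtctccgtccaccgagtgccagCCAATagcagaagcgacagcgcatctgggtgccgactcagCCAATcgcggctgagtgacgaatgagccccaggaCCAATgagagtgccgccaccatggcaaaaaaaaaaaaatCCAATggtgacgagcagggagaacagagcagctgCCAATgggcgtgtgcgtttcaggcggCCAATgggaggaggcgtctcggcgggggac
GC boxes were found at 2 positions in STAT3, 2 in STAT5B, 3 in STAT2 and 2 in STAT6, and at none in TYK2. CCAAT boxes were found at 2 positions in STAT3, 1 in STAT6 and 6 in TYK2. Neither motif separated the higher from the lower genes. Over all 35116 RefSeq windows of this length, 42.6% held a GC box and 32.0% a CCAAT box. The STAT-type GAS motif TTCNNNGAA was in 6.57% of all windows and the interferon element core, GAAA and again GAAA with 2 bases of any kind between them, in 3.02%, on either strand, and neither was found in any of the 16 windows of the 9 members. These matches describe letters only.

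Reads on genes numbered 16381546 for the deficient cells and 16206675 for the sgVector control. The labels were checked with the genes of the 2 ligands: CD274 had 47 reads against 477 in the control, 10.3-fold lower (95% interval 7.59 to 14.2), and PDCD1LG2 had 46 and 204, 4.48-fold lower (3.24 to 6.32). Of 11 mesenchymal and basal markers 9 were past 1 RPKM, led by VIM (390 and 746 RPKM) and FN1 (297 and 229 RPKM), while KRT5 had 7 and 1 reads and KRT14 had 1 and 1. Of 9 luminal markers 5 were past 1 RPKM, among them KRT8 (15.5 and 18.5 RPKM), KRT18 (21.1 and 28.9 RPKM) and ERBB2 (1690 and 1175 reads), while the hormone receptor genes ESR1 and PGR had 6 and 2 and 0 and 0 reads. The 12 blood cell markers were leukocyte genes and the globin gene HBB, which is not a leukocyte marker. Of these 12, 2 were past 1 RPKM, and 3 had no read in either library. Together the 12 summed to 535 reads in the deficient and 360 in the control library. The 2 were CD14, with 476 and 337 reads, and HBB, with 49 and 4, 12.1-fold higher (4.44 to 46.2). HBB passed 1 RPKM only through the deficient library, with 2.29 RPKM there and 0.189 RPKM in the control. PTPRC, the pan-leukocyte marker, had 0 and 4. Their part in the results below was not tested. The deficient library had 6.50% of its reads on mitochondrial genes and the sgVector library 7.99%.

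At the level of the families, little moved. Levels are in RPKM, reads per kilobase of gene length scaled to the reads on all genes, so genes of different lengths can be set side by side. The 4 Janus kinases summed to 48.4 RPKM in the deficient and 51.0 RPKM in the sgVector library, a read-share ratio of 0.945 (95% interval 0.909 to 0.982). The 5 STAT genes summed to 98.0 and 97.8 RPKM, a ratio of 1.02 (0.999 to 1.05). Within these sums the members moved in different directions. In bulk RNA, fewer cells expressing a gene and less of its RNA per cell cannot be told apart.

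**Figure D1:**
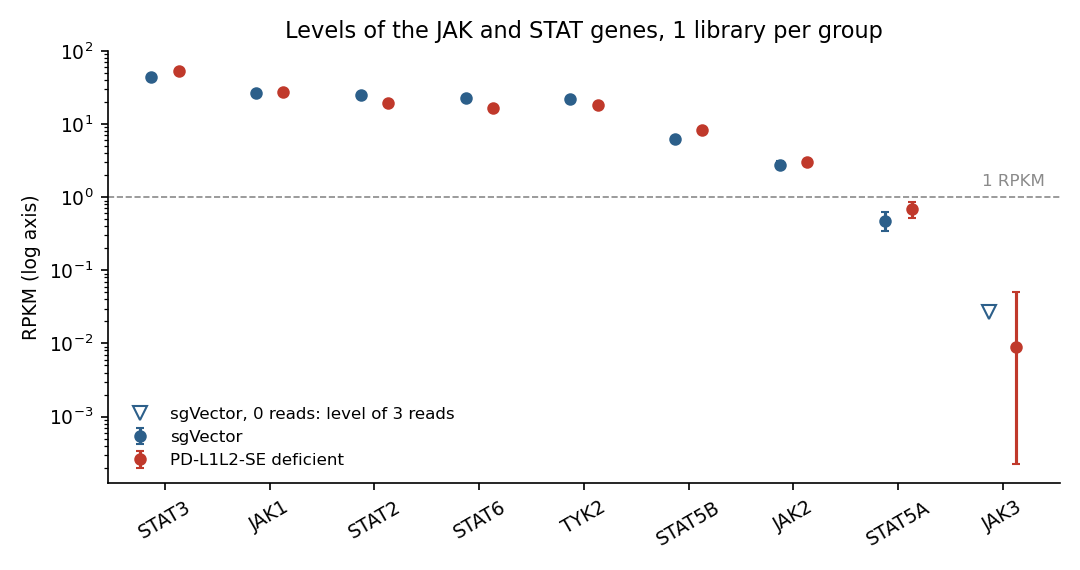
RPKM of the 9 genes (log axis) in the sgVector library (blue) and the PD-L1L2-SE deficient library (red), 1 library each, with 95% counting intervals where they exceed the points. The open triangle marks the level of 3 reads for JAK3, which had no read in the sgVector library; STAT3 was highest in both libraries, and STAT5A and JAK3 lay under 1 RPKM.

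STAT3 was the most abundant member in both libraries, followed by JAK1. In the deficient cells the order ran on through STAT2, TYK2, STAT6, STAT5B, JAK2, STAT5A and JAK3, and each neighbour in that order differed from the next beyond counting error. The closest neighbours there were STAT2 and TYK2, whose levels stood at a ratio of 1.08 (1.01 to 1.15). In the sgVector cells STAT6 stood before TYK2, at a ratio of 1.02 (0.969 to 1.08), and these 2 levels did not differ beyond counting error. The place of TYK2 and STAT6 in the order was thus the only one that was exchanged between the libraries. STAT3 made up 54.0% of the summed STAT RPKM in the deficient and 45.2% in the sgVector cells, while STAT6 made up 16.9% and 22.9%. Among the kinases, JAK1 made up 56.3% and 51.9%, and TYK2 37.5% and 42.7%.

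The log2 ratio of (RPKM + 0.1), deficient over sgVector, could be read for 7 of the 9 members, those whose mean reached 1 RPKM. STAT5A and JAK3 were under that floor. A gene is called higher or lower here where its 95% counting interval lay wholly on 1 side of 0. By that rule 2 of the 7 rose, STAT5B and STAT3, beside 25.9% of the 13552 genes past the floor. In the other direction 3 of the 7 fell, STAT6, STAT2 and TYK2, beside 32.6% of those genes. None of the 7 reached 2-fold, which 3.03% of all genes did upwards and 4.69% downwards. With at least 50 reads over both libraries as the floor instead, 2 of 8 members were higher and 3 were lower, beside 27.0% and 33.5% of 13916 genes, and none reached 2-fold, beside 2.72% upwards and 3.56% downwards. The median log2 ratio of the 7 was 0.04, that of all genes past the floor -0.05 and that of protein-coding genes -0.03. These shares and medians lie near those of all genes, so the members did not stand apart as a group.

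**Figure D2:**
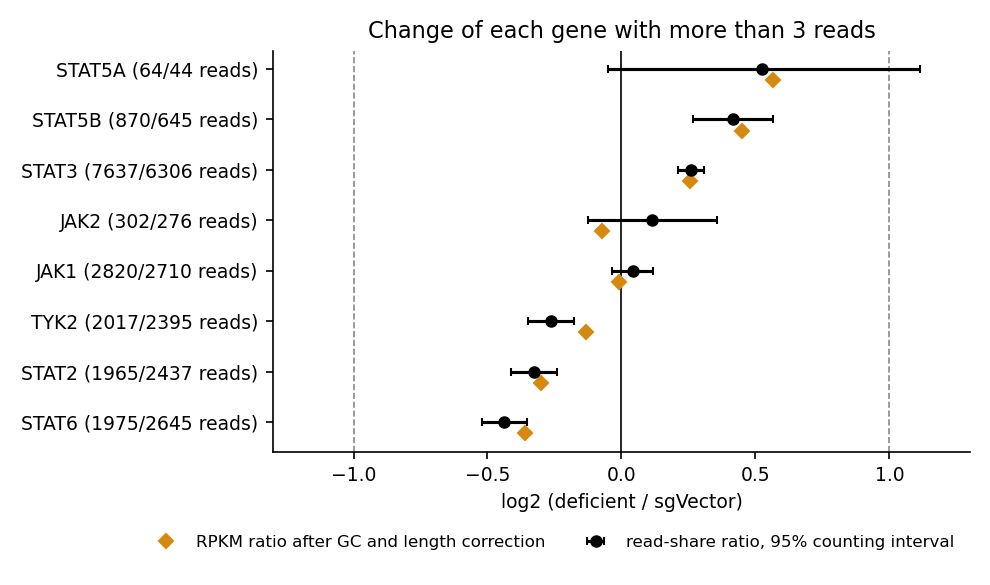
log2 ratio of read shares, deficient over sgVector, with its 95% counting interval (black) and the log2 ratio of (RPKM + 0.1) after correction for GC content and length (orange) for the 8 members with more than 3 reads. Dashed lines mark 2-fold; STAT5B and STAT3 lie above 0, TYK2, STAT2 and STAT6 below, and JAK1, JAK2 and STAT5A have intervals that span 0.

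JAK1, which pairs with nearly all cytokine receptor classes, was the most abundant kinase of the family. It lies on chromosome 1 (hg19 65298912 to 65432187, minus strand; ENSG00000162434) and had 2820 reads, 27.3 RPKM, in the deficient and 2710 reads, 26.5 RPKM, in the sgVector library. Its fold was 1.03 (0.976 to 1.09) and its log2 ratio 0.04, and 91.1% of protein-coding genes past the floor had a larger change in size. JAK1 thus stood at nearly the same level in both libraries, though its log2 interval cleared 0 under 2 other scalings, TPM (0.01 to 0.16) and TMM (0.04 to 0.19).

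TYK2, the partner of JAK1 at type I interferon receptors, was the kinase that fell. It lies on chromosome 19 (hg19 10461205 to 10491352, minus strand; ENSG00000105397). It had 2017 reads, 18.2 RPKM, in the deficient and 2395 reads, 21.8 RPKM, in the sgVector library, 1.20-fold lower (1.13 to 1.27). Of protein-coding genes, 48.3% had a larger change in size. TYK2 is rich in G and C and lay in the highest of 5 GC classes, whose median log2 ratio was -0.20. Its own log2 ratio was -0.26, and -0.13 after correction for GC content and length. JAK1 minus TYK2 was 0.31 on the log2 scale (0.19 to 0.42), and 0.12 (0.01 to 0.24) with both genes corrected for GC content and length, so much of this difference depended on the correction.

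JAK2, which serves gp130, leptin, growth hormone and interferon-gamma receptors, is the member nearest to the ligand genes and was expressed at a low level. It lies on chromosome 9 (hg19 4984390 to 5128183, plus strand; ENSG00000096968) and had 302 reads, 2.99 RPKM, in the deficient and 276 reads, 2.76 RPKM, in the sgVector library. Its fold was 1.08 (0.916 to 1.28), so no difference was detectable at this depth, and the interval reaches from a slight decrease to 1.28-fold. JAK2 was in the lowest GC class, whose median log2 ratio was 0.14. Its own log2 ratio was 0.11, and its sign turned to -0.07 after correction for GC content and length. JAK1 minus JAK2 was -0.07 on the log2 scale (-0.32 to 0.17), and JAK2 minus TYK2 was 0.38 (0.13 to 0.63), but 0.06 (-0.19 to 0.31) with both genes corrected.

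JAK3, the kinase of the common gamma chain receptors and mainly a lymphoid gene, was at or under detection. It lies on chromosome 19 (hg19 17935589 to 17958880, minus strand; ENSG00000105639) and had 1 read in the deficient cells and 0 in the control. A count of 0 allows up to 3 reads, which for JAK3 is 0.0272 RPKM in the sgVector library, so no fold is given. IL2RG, the gamma chain itself, had 0 and 1 reads. Of the exon bases of IL2RG 50.8% are shared with another annotated gene, and reads there may not have been counted for it.

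STAT3, the main effector of the interleukin-6 family, rose slightly from a high level. It lies on chromosome 17 (hg19 40465342 to 40540586, minus strand; ENSG00000168610). It had 7637 reads, 52.9 RPKM, in the deficient and 6306 reads, 44.2 RPKM, in the sgVector library, 1.20-fold higher (1.16 to 1.24). In the deficient library 5.81% of genes past the floor were at a higher level than STAT3, and in the sgVector library 7.12%. Its depth makes it the most precisely counted member, and its log2 ratio of 0.26 was 0.26 after correction for GC content and length as well.

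STAT5B, an effector of growth hormone and interleukin-2 type receptors, showed the largest rise among the 7. It lies on chromosome 17 (hg19 40351186 to 40428725, minus strand; ENSG00000173757) and had 870 reads, 8.24 RPKM, in the deficient and 645 reads, 6.17 RPKM, in the sgVector library, 1.33-fold higher (1.20 to 1.48). STAT5A, the form named for prolactin signalling in the mammary gland, lies beside it (hg19 40439565 to 40463961, plus strand; ENSG00000126561) and had 64 reads, 0.679 RPKM, in the deficient and 44 reads, 0.472 RPKM, in the sgVector library. The fold of STAT5A was 1.44 with an interval of 0.965 to 2.16, and this interval cleared 0 on the log2 scale with TMM (0.02 to 1.19) and after GC and length correction (0.07 to 1.23). STAT5B was thus the prevailing form in both libraries. STAT5A minus STAT5B was 0.11 (-0.46 to 0.68), an interval too wide to tell whether the pair moved alike.

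STAT2 and STAT6 fell. STAT2, which forms the interferon-stimulated complex ISGF3 together with IRF9, lies on chromosome 12 (hg19 56735381 to 56753939, minus strand; ENSG00000170581). It had 1965 reads, 19.6 RPKM, in the deficient and 2437 reads, 24.6 RPKM, in the sgVector library, 1.25-fold lower (1.18 to 1.33). STAT6, the effector of interleukin-4 and interleukin-13, lies on the same chromosome (hg19 57489191 to 57525922, minus strand; ENSG00000166888) and had 1975 reads, 16.5 RPKM, in the deficient and 2645 reads, 22.4 RPKM, in the sgVector library, 1.35-fold lower (1.28 to 1.44). STAT6 had the largest fall of the members, and 26.4% of protein-coding genes past the floor had a larger change in size. The log2 ratios of -0.32 for STAT2 and -0.43 for STAT6 became -0.30 and -0.36 after GC and length correction. Exons of STAT6 overlap those of NAB2 by 69 bases and of LRP1 by 59 bases on the opposite strand, 0.945% and 0.808% of its length, and exons of JAK1 overlap RAVER2 by 4 bases. The sources used here do not give the strand setting, so reads in those bases are uncertain, and no other member shares an exon base with another gene.

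Set against each other, the members formed a spread rather than a common shift. Of 28 pairs among the 8 members with more than 3 reads, 20 had a difference of log2 read-share ratios whose counting interval left out 0. With GC and length correction of both genes 22 did, 18 of them among the 20. STAT5B minus STAT6 was 0.85 (0.68 to 1.02), a change of 1.81-fold in the ratio of the 2 genes. STAT3 minus STAT6 was 0.70 (0.60 to 0.79), or 1.62-fold (1.52 to 1.73). The 2 STATs that rose thus moved away from the 2 that fell. STAT2 minus STAT6 was 0.11 (-0.01 to 0.23) and TYK2 minus STAT2 was 0.06 (-0.06 to 0.18), both with intervals that span 0. JAK2 minus STAT3 was -0.15 (-0.39 to 0.09). With the correction, TYK2 minus STAT2 became 0.17 (0.05 to 0.29) and JAK2 minus STAT3 -0.32 (-0.57 to -0.08), both off 0.

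The genes around JAK2 were all lower in the deficient cells, while JAK2 had an interval that spans 0. Within 1 Mb, 11 protein-coding genes passed the floor, 4 to the left and 7 to the right, and all 11 had intervals below 0. On the left, towards the telomere, SLC1A1 (a glutamate transporter) had a log2 ratio of -1.50, CDC37L1 -1.45, AK3 -0.62 and RCL1 -0.96. RCL1, whose end lies 98.5 kb from JAK2, had 118 reads in the deficient and 233 in the control library. All 4 genes of this side were thus lower. On the right, PLGRKT, a plasminogen receptor gene 230 kb away, had 66 and 122 reads and a log2 ratio of -0.88. CD274 was next, 322 kb away, at -3.19, followed by PDCD1LG2, 382 kb away, at -2.07. These 2 had the lowest ratios of the 11. Beyond them RIC1 stood at -0.56, ERMP1 at -0.89, KIAA2026 at -0.77 and RANBP6 at -0.69. JAK2 thus had lower-reading genes on both sides.

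**Figure D3:**
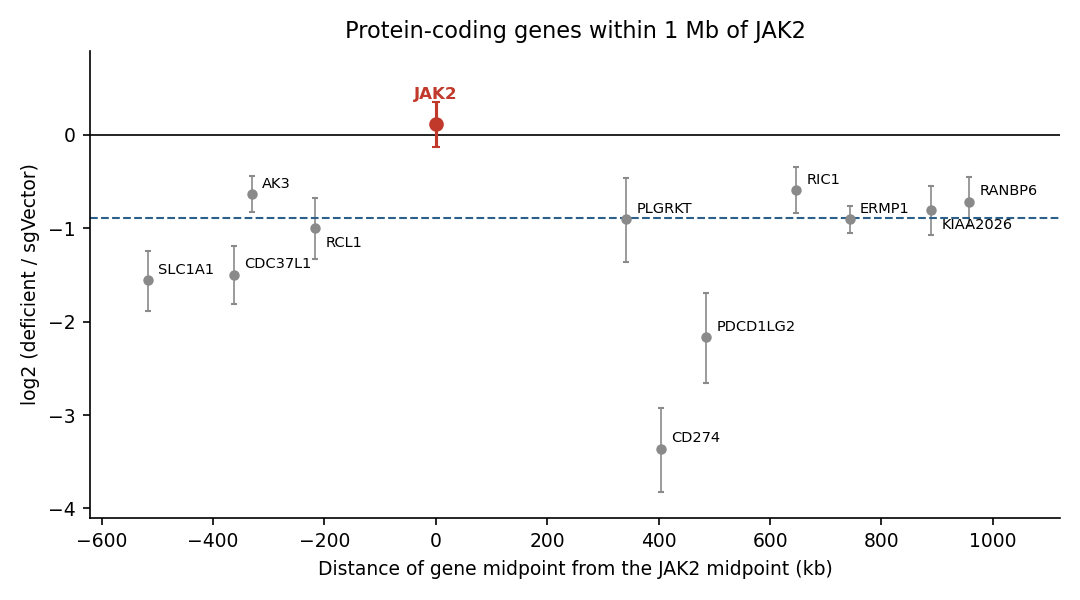
log2 ratio of read shares, deficient over sgVector, with 95% counting intervals for JAK2 (red) and the 11 protein-coding genes past the floor within 1 Mb (grey), against distance of the gene midpoints in kb. The dashed line marks the median of the 11, -0.89; all 11 lie below 0 and JAK2 has an interval that spans 0.

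The median over the 11 was -0.89, and -0.88 over the 9 without CD274 and PDCD1LG2. The difference between JAK2 and each neighbour had an interval above 0 for all 11, from 0.70 for RIC1 (0.37 to 1.04) to 3.47 for CD274 (2.98 to 3.97). JAK2 stood 1.0 log2 units above the median of its neighbours, and 0.85 after GC and length correction of JAK2 and its neighbours. Among the 9273 protein-coding genes past the floor that had at least 5 such neighbours, 1.62% stood as far or farther above theirs. That comparison was made after the values were seen. Of the windows of the 9 members, that of JAK2 had the lowest median.

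The remaining members were closer to the genes around them. Around STAT6, 48 of 50 protein-coding genes within 1 Mb lay below 0, with a median of -0.49, and STAT6 stood 0.06 above that median (-0.03 to 0.14 from its own counting error alone). Around STAT2, 42 of 44 lay below 0, with a median of -0.42, and STAT2 stood 0.09 above it. The 2 genes lie 735 kb apart, so their windows share many genes and each window holds the other gene. By the interval rule 46 of the 50 genes around STAT6 were lower and 1 was higher. Around STAT2, 36 of the 44 were lower and 0 were higher. Over all genes past the floor 32.6% were lower and 25.9% higher. The genes that adjoin STAT6 read the same way: NAB2, a transcriptional corepressor, had 497 reads in the deficient and 774 in the control library, and LRP1, a lipoprotein receptor, had 2425 and 3003, log2 ratios of -0.65 and -0.32. Beside STAT2, TIMELESS stood at -0.38, and IL23A, with 22 and 29 reads, had an interval that spans 0. The fall of STAT2 and STAT6 was thus about the size of that of the genes around them.

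**Figure D4:**
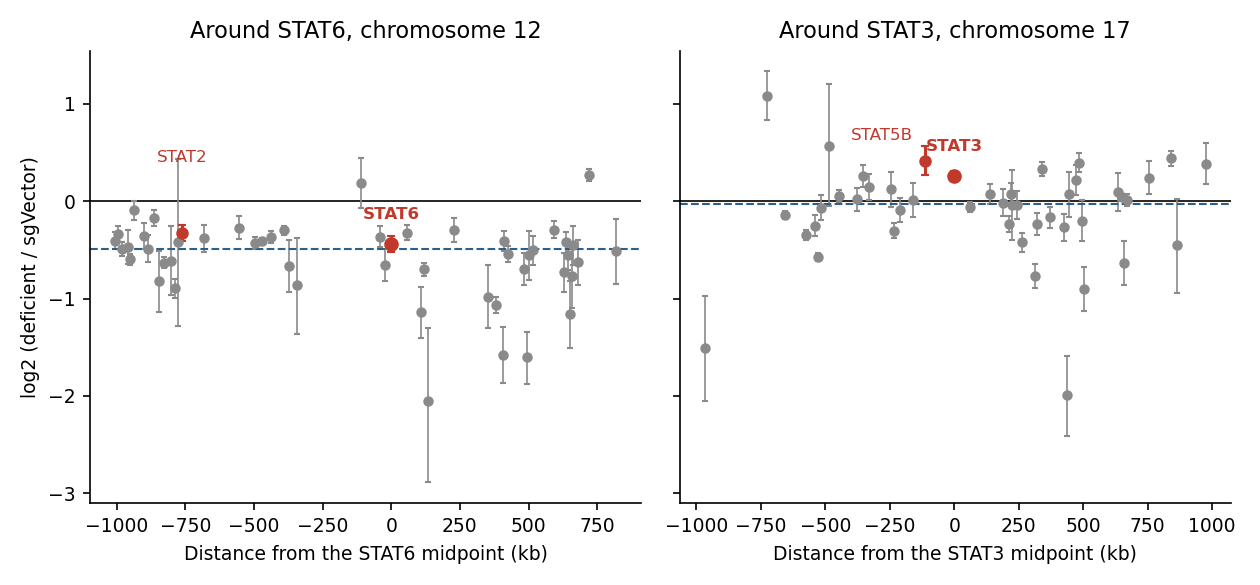
log2 ratio of read shares, deficient over sgVector, with 95% counting intervals for protein-coding genes past the floor within 1 Mb of STAT6 (left) and STAT3 (right), against distance of gene midpoints in kb; members are red, other genes grey, and the dashed line is the window's median. Nearly all genes of the left panel lie below 0, 48 of 50, and those of the right panel lie on both sides, 21 above and 23 below.

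STAT5B, STAT5A and STAT3 lie within 189.4 kb on chromosome 17, with 10.8 kb between the first and the second and 1.38 kb between the second and the third. All 3 had a value above 0. Of the 44 genes around STAT3, 21 lay above 0 and 23 below, with a median of -0.02, and STAT3 stood 0.29 and STAT5B 0.45 above the median of its window. The window of STAT3 includes STAT5B and that of STAT5B includes STAT3. For STAT3 the difference from its window's median was 0.17 after GC and length correction of the gene and its neighbours. The genes that flank the trio were GHDC, log2 ratio 0.01, and CAVIN1, a caveolar coat protein gene, at -0.06. The genes on either side of the trio thus stood near 0.

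Around TYK2, 33 of 43 genes lay below 0, with a median of -0.17, and TYK2 stood 0.09 below it, log2 difference -0.09. Its neighbour CDC37, a kinase cochaperone, stood at -0.33, and RAVER1 at -0.03. Around JAK3, 32 of 38 lay below 0, with a median of -0.29, and MAP1S, a microtubule-associated protein gene, stood at -0.29. Around JAK1 the direction was the opposite. All 5 genes there lay above 0, with a median of 0.27, and JAK1 stood below it, log2 difference -0.23. By the interval rule 4 of the 5 were higher and 0 lower. These 5 include LEPR, the leptin receptor gene, at 1.49, and the adjoining RAVER2 at 0.27 and DNAJC6 at 0.38.

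The other genes of the pathway are given by role, from lists of known members, beside the shares and the median of -0.05 given above for all genes. The receptors that JAKs attach to had more genes higher than lower. Of 31 type I cytokine receptor genes 16 passed the floor, of which 11 were higher, 2 were lower and 3 had intervals that span 0, with 4 at least 2-fold higher and none 2-fold lower, and a median log2 ratio of 0.36. IL6ST, the gene of gp130, had 76.7 RPKM in the deficient and 40.8 RPKM in the sgVector library, 1.88-fold higher (1.83 to 1.94). OSMR, the oncostatin M receptor and gp130 partner, had 58.3 and 47.2 RPKM, 1.24-fold higher. These are the 2 most abundant receptors of the list, and the 4 past 2-fold were less abundant. LEPR had 459 and 150 reads, 3.03-fold higher (2.51 to 3.66), and IL13RA2, a decoy receptor for interleukin-13, had 45 and 13. Both were under 1 RPKM in the sgVector library, at 0.814 and 0.493 RPKM. They passed the floor only through the deficient library, so the count of 4 depends in part on the floor. CRLF2 and IL7R, the 2 chains of the thymic stromal lymphopoietin receptor, had 566 and 270 reads and 234 and 105 reads, 2.07-fold and 2.20-fold higher. LEPR and CRLF2, whose receptors bind JAK2, thus rose, while EPOR, the erythropoietin receptor that also binds JAK2, had 161 and 184 reads and an interval that spans 0. Among the receptors under the floor, 3 with at least 50 reads were past 2-fold. PRLR, the prolactin receptor, had 208 reads in the deficient and 15 in the control library, 13.7-fold higher (8.13 to 25.0), the largest fold of the list among genes with that many reads. GHR, the growth hormone receptor, had 50 and 11, 4.5-fold higher (2.31 to 9.58), and IL12RB2, a chain of the interleukin-12 receptor, had 15 and 45, 3.03-fold lower (1.66 to 5.86).

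Of 10 type II receptor genes 6 passed the floor, with 3 higher, 2 lower and a median of 0.11, and none past 2-fold. IFNGR1, the interferon-gamma receptor chain that binds JAK1, had 52.5 RPKM in the deficient and 36.5 RPKM in the sgVector library, 1.44-fold higher. IL20RB had 27.2 and 38.0 RPKM, 1.40-fold lower. IFNAR2 had 45 and 37 reads, but 83.2% of its exon bases are shared with other annotated genes, so its level is uncertain. These receptors moved in both directions.

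Of 33 cytokine ligand genes 11 passed the floor, with 2 higher, 4 lower and 5 with intervals that span 0, and a median of -0.19. The 3 that fell by at least 2-fold were CSF3, CSF2 and LIF. LIF, a gp130 ligand, had 96 reads in the deficient and 212 in the control library, 2.23-fold lower (1.75 to 2.87). CSF3 had 52 and 801 reads, 15.6-fold lower, and CSF2 had 30 and 144, 4.85-fold lower. IL6 had 38.1 and 31.6 RPKM, 1.21-fold higher, and IL24 had 24.2 and 36.6 RPKM, 1.51-fold lower. The 2 most abundant ligands thus moved in opposite directions.

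Of 21 inhibitors 17 passed the floor, with 7 higher, 4 lower and 6 with intervals that span 0, and a median of 0.06. SOCS1, which blocks JAK1, JAK2 and TYK2 directly, had 52 reads in the deficient and 130 in the control library, 2.53-fold lower (1.82 to 3.56), the only inhibitor past 2-fold. The phosphatase genes PTPN1 and PTPN11, the most abundant of the list, had 65.1 and 67.3 RPKM and 27.1 and 26.0 RPKM, both with intervals that span 0. The list as a whole therefore showed no common direction.

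**Figure D5:**
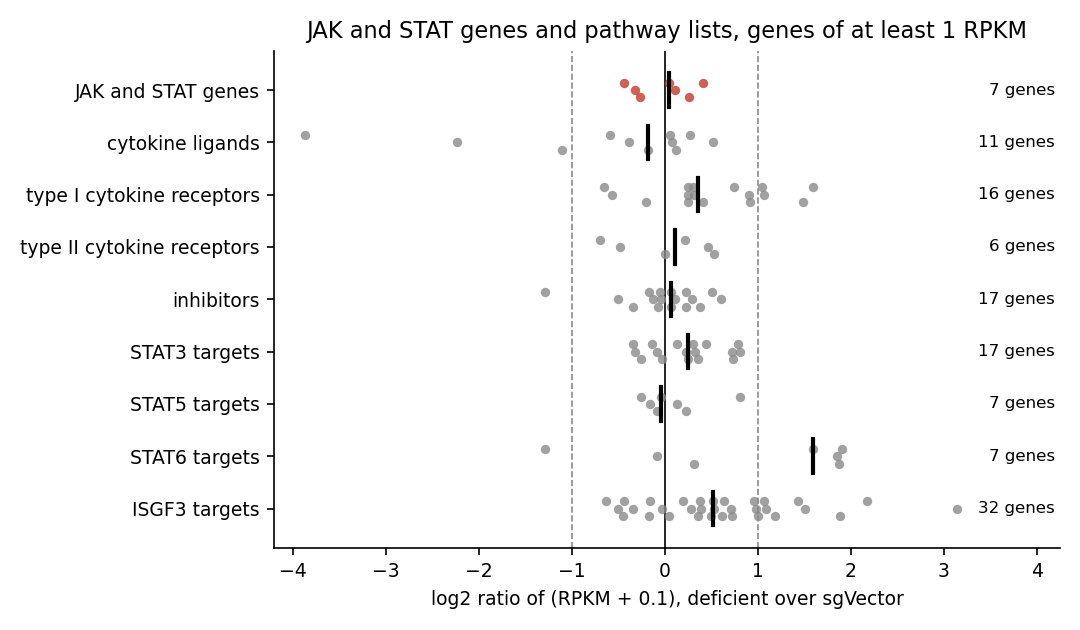
log2 ratio of (RPKM + 0.1), deficient over sgVector, for genes whose mean reached 1 RPKM: the JAK and STAT genes (red) and 8 pathway lists (grey), with black bars at the medians and dashed lines at 2-fold. The JAK and STAT genes lie between -0.43 and 0.41, and the STAT6 and ISGF3 target lists have medians of 1.59 (7 genes) and 0.52 (32 genes). The 1.59 is the value of IL13RA2, which reached the floor only through the deficient library.

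Genes known as STAT targets gave a mixed picture when read beside the STAT that names their list. Phosphorylation of the STATs was not measured, so RNA of targets is set beside RNA of the factor only, and a link between them was not tested. Of 24 STAT3 targets 17 passed the floor, with 11 higher and 5 lower and none past 2-fold. Their median was 0.25, beside a log2 ratio of 0.26 for STAT3. SAA1, an acute-phase gene, had 977 RPKM in the deficient and 592 RPKM in the control library, 1.65-fold higher, and TIMP1 had 363 and 399 RPKM, 1.10-fold lower. Of 12 STAT5 targets 7 passed the floor, with 3 higher, 2 lower and a median of -0.04, and the most abundant of these, CCND1 (cyclin D1) and BCL2L1, were 1.20-fold and 1.06-fold lower. For BCL2L1 43.0% of the exon bases are shared with an antisense gene. The median of the STAT5 list thus lay near 0, beside a log2 ratio of 0.41 for STAT5B. The STAT3 and STAT5 lists overlap, however: BCL6, PIM1, CCND1, SOCS3 and BCL2L1 are in both. Of the STAT5 targets past the floor only SOCS2 and PIM2 are not STAT3 targets as well, and both had intervals that span 0. The 2 medians are therefore not separate readings.

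Of 17 STAT6 targets 16 were found in the table and 7 passed the floor, of which 5 were higher and 1 was lower, with 4 and 1 past 2-fold and a median of 1.59, while STAT6 itself stood at -0.43. The 4 were IL13RA2, MAOA (monoamine oxidase A), SERPINB3 and SERPINB4. The median of 1.59 is the value of IL13RA2, which had only 45 and 13 reads. It passed the floor only through the deficient library, with 1.69 RPKM there and 0.493 RPKM in the sgVector library. The count of 4 and the median thus depend in part on the floor. Over 11 alternative settings this median ran from 0.00 to 1.86, so its size is uncertain. MAOA had 1563 reads in the deficient and 415 in the control library, 3.73-fold higher (3.34 to 4.16). SERPINB4 had 4567 and 1244 and SERPINB3 had 1693 and 444, close paralogs whose reads may be split uncertainly. The 5 chemokine genes of the list had few reads: CCL17 and CCL24 had 1 and 4 each, CCL26 had 1 and 7, CCL22 had 10 and 1, and CCL11 had none. SOCS1, listed here as well, was the 1 that fell.

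Of 40 ISGF3 targets, genes switched on by type I interferon, 32 passed the floor, with 22 higher, 6 lower and 8 at least 2-fold higher, and a median of 0.52. STAT2, a subunit of ISGF3, was 1.25-fold lower in the same cells. IRF9, the other subunit listed here, had 34 reads in the deficient and 66 in the control library, under the floor, with 48.4% of its exon bases shared with another annotated gene. The 8 were RSAD2, IFIT2, IFIT3, IFIT1, OASL, SAMD9, TRIM22 and ISG15, from 10.8-fold for RSAD2 to 2.13-fold for ISG15. RSAD2 passed the floor only through the deficient library, with 4.15 RPKM there and 0.383 RPKM in the control. The count of 8 uses the log2 ratio of (RPKM + 0.1), while these folds are ratios of read shares. HERC6, with 444 and 215 reads, was 2.04-fold higher by read share, but its log2 ratio of 0.9996 left it out of the 8. Under the floor IFI27 had 27 and 71 reads, 2.66-fold lower (1.68 to 4.31). STAT2 and most of the measured targets thus read in opposite directions.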

How the data were processed

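RNA was measured in 2 libraries of SUM-159 cells, 1 PD-L1L2-SE deficient and 1 sgVector. The authors deposited RPKM values per gene, with exon positions and lengths per the file headers. Subread, featureCounts 1.6.4 and the build GRCh37/hg19 are named per the submitters' processing notes. The aligner, annotation release, strand setting and treatment of reads that fit several genes are missing from the sources used here, as is whether the libraries came from separate cultures.

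From the steps between RPKM values, reads were recovered as whole numbers for 100% of values at a tolerance of 1e-06, and intervals rest on them. Log2 ratios used RPKM + 0.1, which understates changes of low genes, and genes whose mean reached 1 RPKM. Fold changes are ratios of read shares with 95% Clopper-Pearson intervals, and differences between genes have Wald intervals. Counts of genes past 2-fold use the log2 ratio of (RPKM + 0.1) instead. PCR reads are not independent molecules, so intervals cover counting error only. Of 60880 rows, 41 pseudoautosomal copies on chromosome Y were not used. Gene types, GC content, reading frames and shared words came from GENCODE release 29, matched by gene identifier for 93.4% of rows, and promoters from RefSeq GRCh38.p14. Coordinates of genes are those of the deposited table.

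Members and lists were chosen with earlier results of these data known. Named genes are the members, CD274 and PDCD1LG2, genes within 1 Mb of JAK2, the nearest genes on each side of the other members, genes that overlap them, and list genes past 2-fold with at least 50 reads or among the 2 most abundant of a list; other genes named were chosen after their values were seen. Alternatives covered the pseudocount, scaling, floor, fold threshold, window, and a lowess correction for GC content and length. Intervals used scipy 1.17.1, the correction statsmodels 0.14.6, figures matplotlib 3.10.9, and tables pandas 2.3.3 with numpy 2.4.6 under Python 3.11.15, and the scripts were tested on simulated data.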

Additional observations from a re-analysis of the deposited data

How the results depend on the processing

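Log2 ratios of the 8 members with more than 3 reads were recomputed under 8 alternatives each, 64 values, of which 62 stayed within the counting interval and none reversed a called direction. The 2 that moved were TYK2 with GC and length correction (-0.13) and STAT3 with TMM scaling (0.34). JAK1 and JAK2, whose intervals span 0, turned to -0.01 and -0.07 with that correction. The count of members higher was 2 or 3, with JAK1 added under TPM and TMM, and 3 were lower in each of the 9 settings tried. With the window at 0.5 Mb the median around JAK2 was -1.45, and the other 35 window medians stayed between the medians of the interval bounds of their genes. Those around STAT3 and STAT5A, -0.02, and STAT5B, -0.04, lie so near 0 that their sign turned under TMM (0.05, 0.05 and 0.04), and the first 2 also at a floor of 5 RPKM (0.01). Of 88 list medians 5 moved: type I receptors without a floor, 0.26; ligands at a floor of 5 RPKM, -0.59; STAT6 targets with a pseudocount of 1 RPKM, 0.85, and without a floor, 0.00; and ISGF3 targets without a floor, 0.38. Genes near 0 reads enter when there is no floor; the cause of the others was not tested. Of all genes, 2.07% were at least 2-fold lower when only protein-coding genes were counted, against 4.69%. Of 320 counts within the lists 35 moved by over 1.5 times. The correction of members together with their neighbours, and of both genes of a pair, was chosen after seeing the data. No paired analysis was possible because each group had 1 library. JAK3 and STAT5A are limited by their read numbers.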
